A study of Mus musculus with 6 samples.

Results

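The genes described here build, anchor, crosslink and degrade the non-collagen part of the extracellular matrix in mouse kidney. They were chosen by name from known function, with earlier results of these data known. The 38 genes comprise glycoproteins that cells bind, proteoglycans, laminins and nidogens, and lysyl oxidases. They also comprise metalloproteinases and their inhibitors, CCN proteins, TGF-beta ligands and markers of contractile cells. Of the 38, 37 are rows of the deposited table of 17550 genes, and all 37 passed the limit on low values and were tested. Timp1, which encodes a secreted metalloproteinase inhibitor, is not a row of that table and was not analysed here. Poly(A)-selected RNA libraries were made from whole kidneys after the animals had been perfused with saline. There were 3 libraries of mice labelled Control and 3 of mice labelled KC-Tie2, a psoriasis model whose keratinocytes carry extra Tie2, a receptor tyrosine kinase encoded by Tek. The labels used here give no age, sex, strain, promoter, further allele or treatment for either genotype, and the control group is headed WT in the authors' comparison. Nor do they state that every library is from its own animal, so the p-values rest on sample-to-sample spread that may be partly technical.

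Matrix of the kidney takes 2 main forms. Basement membranes under tubule cells, vessels and podocytes are sheets of laminin, nidogen, agrin, perlecan and collagen IV, while the thin interstitium between tubules holds fibronectin, fibrillin and small leucine-rich proteoglycans made largely by fibroblasts. TGF-beta is stored in that matrix in a latent form, and once active it raises transcription of many matrix genes in fibroblasts and tubule cells. Levels are given as normalized counts, the estimated counts of a gene divided by a factor per library. Log2 fold changes are KC-Tie2 minus Control on the log2(value + 1) scale, with the standard error (SE) of the limma fit, and a gene "rose" or "fell" where its adjusted p (limma, Benjamini-Hochberg over all 17539 genes tested) was under 0.05. In bulk tissue, fewer cells of a type and less RNA per cell cannot be told apart.

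Estimated depth was 18800000 to 29500000 counts per library. Kidney markers were high in every library: 8 of 8 proximal tubule markers summed to 417155 to 447932 in Control and to 350132 to 414375 in KC-Tie2 libraries. Fibroblast markers (9 of 10 in the table) summed to 5029 to 7369 and to 5967 to 7736, and endothelial markers (9 of 9) to 13808.5 to 15020 and to 13400 to 14700, so that both sums overlapped between genotypes. Macrophage markers (9 of 9) summed to 1984 to 2581 and to 2701 to 3376. The 6 urothelial markers, all in the table, gave sums of 402, 772 and 122 for the Control kidneys (replicates 1, 2 and 3) and 473, 137 and 361 for the KC-Tie2 kidneys. Adipocyte markers (4 of 5) summed to 1939, 199 and 67.6 and to 1389, 15.0 and 88.9, high in replicate 1 of both genotypes. No skeletal muscle marker of 5, and of 6 adrenal cortex markers only Star, is a row of the table. Tek, read as a check of the transgene, was at 989 to 1081 in Control and 933 to 976 in KC-Tie2 kidneys (log2 fold change -0.14 ± 0.07, limma adjusted p = 0.361). Keratinocytes are not part of the kidney, so that this level does not check the labels.

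Most of these matrix genes did not pass the test. Of the 37 tested, 2 rose, the glycoprotein genes Fn1 and Tgfbi, and 1 fell, the metalloproteinase inhibitor gene Timp3. These are 5.41% rising and 2.70% falling, where 0.855% of all genes tested rose and 0.838% fell, 1.69% in all. The genes were chosen with earlier results of these data known, so these shares describe the set and do not test it. At an unadjusted p under 0.05 there were 9 of the 37, or 24.3%, against 15.3% of all genes. Libraries of the genotypes did not overlap at 7 of the 37 genes, or 18.9%, which is near the 20% of all genes tested at which they did not overlap. Those 7 were Fn1, Tgfbi, Sparc, Lamb2, Lamc1 and Tgfb1, higher in KC-Tie2 kidneys (9.96% of all genes), and Timp3, lower (10% of all genes). The median log2 fold change of the 37 was 0.06, against 0.0012 over all genes tested, and 24 of them (64.9%) lay above 0, against 50.3% of all genes. In the authors' deposited table, Fn1, Tgfbi and Timp3 were also the only genes of the 37 with a step-up FDR under 0.05, a limit that 3.91% of all its genes passed.

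**Figure D1:**
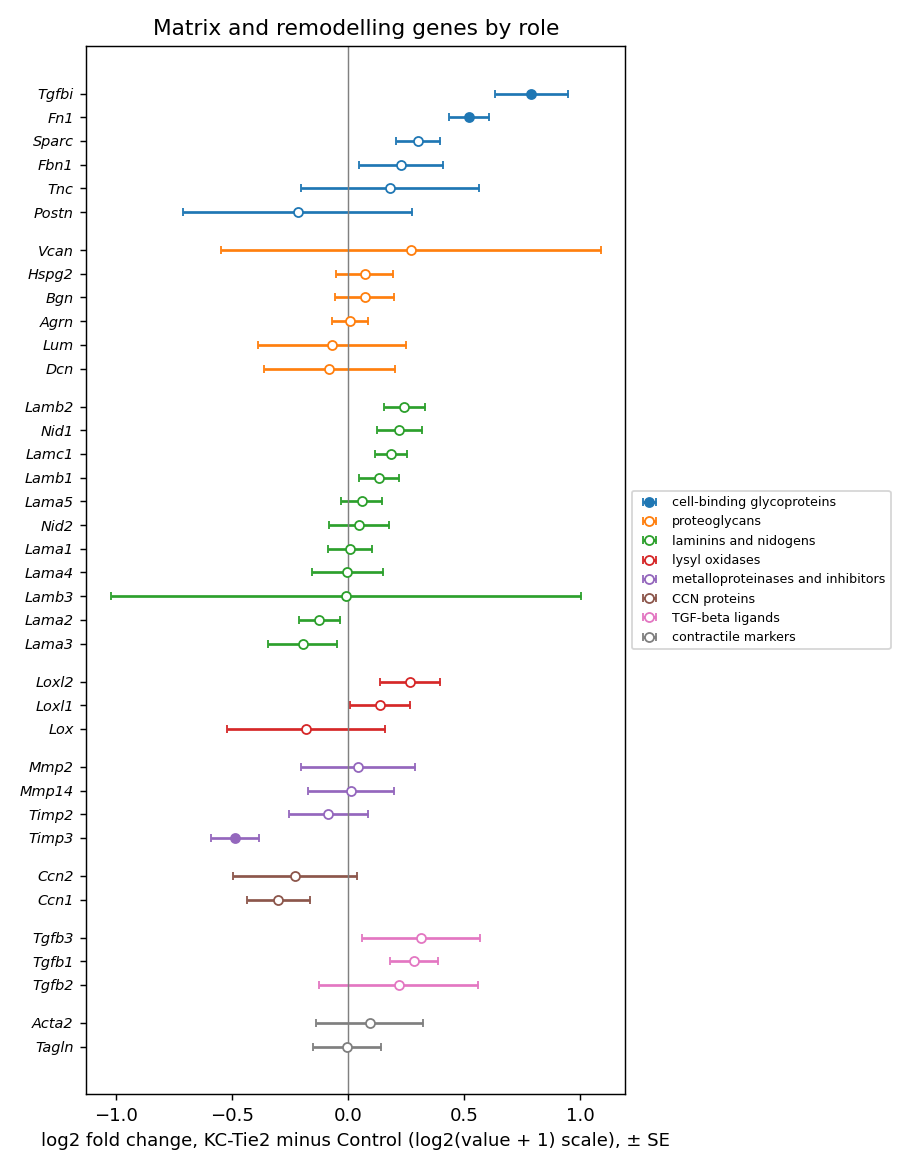
Log2 fold change of each of the 37 genes (KC-Tie2 minus Control, log2(value + 1) scale, points) with its SE (bars), grouped and coloured by role; filled points passed the limma test. Filled points are Tgfbi at 0.79, Fn1 at 0.52 and Timp3 at -0.49, and the widest bars belong to Lamb3 and Vcan.

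Windows upstream of the start site were read from RefSeq (GRCm38, while the deposited table is on mm39), which gave 27 windows for 23 of the 38 genes. Fn1, which rose, had no window among them. Windows are shown for the other called genes, Tgfbi and Timp3, which moved in opposite directions. Both are on the plus strand, cover the 250 bases before the start and are printed 5′ to 3′. Capitals mark the SMAD element CAGAC, the core bound by the transcription factors of the TGF-beta pathway, on either strand (GTCTG on the reverse).
Tgfbi, chr13:56609336-56609585: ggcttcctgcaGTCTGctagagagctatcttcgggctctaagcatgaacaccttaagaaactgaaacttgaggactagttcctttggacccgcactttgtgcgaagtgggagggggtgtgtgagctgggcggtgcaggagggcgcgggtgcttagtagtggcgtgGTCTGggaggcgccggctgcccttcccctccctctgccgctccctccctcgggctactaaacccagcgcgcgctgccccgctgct
Timp3, chr10:86300162-86300411: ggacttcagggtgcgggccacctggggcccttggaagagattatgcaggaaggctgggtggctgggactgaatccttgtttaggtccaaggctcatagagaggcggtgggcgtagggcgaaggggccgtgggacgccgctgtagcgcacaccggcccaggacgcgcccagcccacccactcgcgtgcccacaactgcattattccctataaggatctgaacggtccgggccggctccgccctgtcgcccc
The Tgfbi window held the element at 239 and 85 bases before the start and the Timp3 window did not hold it. The element was present in 12 of the 27 windows of these genes and in 42.2% of 32851 windows of all genes. GGAATG, the TEAD element, was in 5 of the 27 and 12.6% of all, TATAAA in 5 and 12.4%, the CArG box in 1 and 1.47%, and the AP-1 element TGACTCA in 0 and 4.46%. GC content was 62.4% in the Tgfbi and 65.6% in the Timp3 window, against a median of 52.4%. These matches describe letters only and say nothing of binding.

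Among the glycoproteins that cells bind, 2 of 6 rose and none fell, where 0.855% of all genes tested rose and 0.838% fell. Fn1 encodes fibronectin, which links integrins to collagen and is laid down early in matrix repair (ENSMUSG00000026193, mm39 chromosome 1, 71624679 to 71692359). Control replicates 1, 2 and 3 held 1283, 1525 and 1316 normalized counts of Fn1, and KC-Tie2 replicates 1, 2 and 3 held 2155, 1949 and 1810. Every KC-Tie2 library lay above every Control library. The means were 1375 ± 131 and 1971 ± 174 (SD, n = 3 each), a 1.43-fold rise (log2 fold change 0.52 ± 0.09 SE, limma adjusted p = 0.0159). Tgfbi encodes a TGF-beta-induced secreted protein that binds collagen and integrins (ENSMUSG00000035493, mm39 chromosome 13, 56757336 to 56787375). Its values were 212, 221 and 173 in Control and 427, 347 and 285 in KC-Tie2 replicates 1 to 3, again without overlap, with replicate 3 the lowest of both genotypes. The Tgfbi means were 202 ± 25.3 and 353 ± 71.5 (SD, n = 3 each), 1.73-fold higher in KC-Tie2 kidneys (log2 fold change 0.79 ± 0.16 SE, limma adjusted p = 0.0313).

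Beside these 2 genes, the macrophage marker sum given above was higher in every KC-Tie2 than in every Control library, with 3 of its 9 genes called (C1qa, C1qb and C1qc). Neutrophil markers (3 of 8 in the table, all 3 called) summed to 8.4 to 17.3 in Control and 58.1 to 145 in KC-Tie2 libraries. None of the 3 exceeded 12.4 in a Control library, while the smallest row maximum in the table was 24.8. They reached that level only through KC-Tie2 values, so being called is not independent of being in the table. Collecting duct markers (6 of 6, none called by limma, 5 at an unadjusted p under 0.05) summed to 8276 to 10820 and to 11968 to 15478. Thick ascending limb markers (3 of 3, none called by limma, 1 at an unadjusted p under 0.05) summed to 88826 to 94425 and to 94778 to 122757, a narrow gap. Among 6 of 7 injured-tubule markers, none of them called by limma and 3 at an unadjusted p under 0.05, Spp1 carried the separation of the sum (12074.5 to 16033 against 38198 to 83528). The other 5 summed to 1925 to 2554 and to 2205 to 2651, which overlap. The fibroblast sum overlapped. The part of these cell types in the result was not tested. The calls of Fn1 and Tgfbi were lost in 4 of the 6 fits with a library left out, while their log2 fold changes ranged from 0.45 to 0.60 and from 0.64 to 0.94. Calls over the whole table fell from 297 to between 48 and 69 in the same 4 fits. Fn1 had limma adjusted p-values of 0.0936, 0.0844, 0.0704 and 0.0752 without Control replicate 1, Control replicate 3, KC-Tie2 replicate 1 and KC-Tie2 replicate 2, and of 0.0079 and 0.0078 without Control replicate 2 and KC-Tie2 replicate 3. For Tgfbi those values were 0.115, 0.131, 0.122 and 0.134, and 0.0304 and 0.00874. Its adjusted p was 0.0625 with voom.

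The other 4 glycoproteins did not pass. Sparc encodes osteonectin, a collagen-binding protein that modulates how cells attach. It was at 2235, 2259 and 1886 in Control and 2688, 2884 and 2305 in KC-Tie2 replicates 1 to 3. The KC-Tie2 libraries lay above the Control libraries, with KC-Tie2 replicate 3 close to the highest of them (log2 fold change 0.30 ± 0.10 SE, limma adjusted p = 0.156). Sparc passed without KC-Tie2 replicate 3 (limma adjusted p = 0.0421), in a fit that called 682 of all genes, against 297 with every library. In the other fits with a library left out it did not pass (limma adjusted p 0.119 to 0.468). Fbn1, whose product fibrillin forms the microfibrils that carry elastin and latent TGF-beta, ranged from 575 to 870 in Control and 704 to 995 in KC-Tie2 kidneys. Tnc and Postn encode tenascin C and periostin, matricellular proteins made in quantity mainly in development and repair. Tnc was at 287, 531 and 249 in Control and 516, 274 and 391 in KC-Tie2 libraries (log2 fold change 0.18 ± 0.38 SE, limma adjusted p = 0.882). Postn was at 106, 129 and 33.8 and at 81.0, 59.2 and 61.7 (-0.22 ± 0.49 SE, limma adjusted p = 0.89). For both genes the spread within a genotype was wider than the difference between genotypes.

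**Figure D2:**
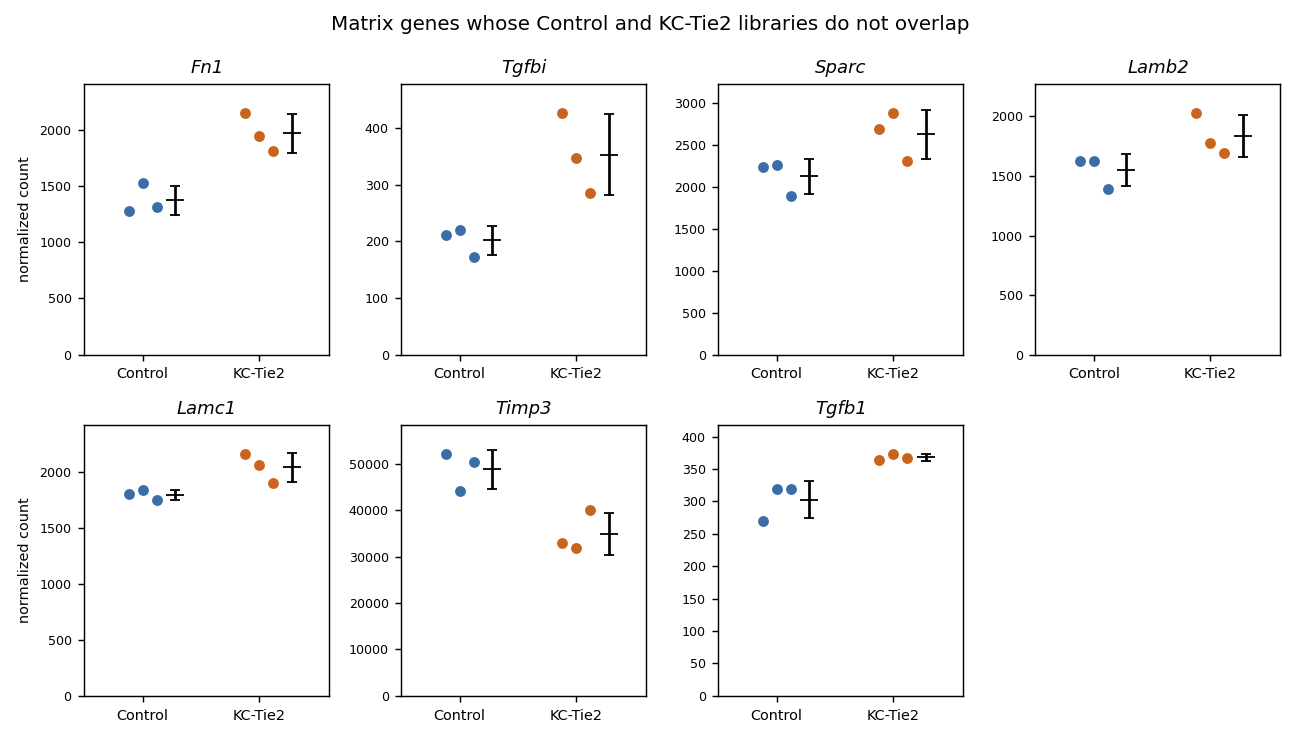
Normalized count (y axis, from 0) of the 7 genes at which Control (blue) and KC-Tie2 (orange) libraries did not overlap; each point is a library, in the order of replicates 1 to 3, and the black bar is mean ± SD. Timp3 is the only one of the 7 that was lower in KC-Tie2 kidneys, and the 3 KC-Tie2 points of Tgfb1 lie between 364 and 373.

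Proteoglycans, core proteins that carry sulfated sugar chains, showed no change that passed the test. All 6 overlapped between genotypes, log2 fold changes ran from -0.08 to 0.27, and limma adjusted p-values from 0.845 to 0.974. Hspg2 and Agrn encode perlecan and agrin, the heparan sulfate proteoglycans of basement membranes. Agrn was at 4794, 5170 and 4618 in Control and 5289, 4785 and 4605 in KC-Tie2 replicates 1 to 3. It was the steadiest of the 37 genes, with the highest library 1.15 times the lowest (log2 fold change 0.0088 ± 0.08 SE). Hspg2 ranged from 5374 to 7430 in Control and from 5929 to 7088 in KC-Tie2 kidneys, with Control replicate 2 the highest.

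The small leucine-rich proteoglycans decorin, biglycan and lumican bind collagen fibrils and set their diameter. Dcn lay between 395 and 651 in Control and between 408 and 698 in KC-Tie2 kidneys. Bgn spanned 2957 to 4040 and 3261 to 4069, and Lum 25.7 to 42.9 and 25.4 to 44.4. None of these ranges was separate. Vcan encodes versican, a large hyaluronan-binding proteoglycan. It was at 231, 300 and 85.2 in Control and 425, 91.7 and 267 in KC-Tie2 replicates 1 to 3, with 1 low library in each genotype. Its highest library was 4.99 times its lowest, and the SE of its log2 fold change, 0.82, exceeded every log2 fold change among the 37 genes.

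Laminins are cross-shaped trimers of an alpha, a beta and a gamma chain that assemble into the sheet of the basement membrane, and nidogens tie that sheet to collagen IV. Of the 11 laminin and nidogen genes none rose or fell (limma adjusted p 0.202 to 0.999), and 2 did not overlap between genotypes. Over all genes tested 20% did not overlap, so that 2 of 11 is near that share. Lamb2 encodes the beta chain of the mature glomerular basement membrane. It was at 1627, 1629 and 1391 in Control and 2032, 1775 and 1697 in KC-Tie2 replicates 1 to 3. All KC-Tie2 values were above the Control values (log2 fold change 0.24 ± 0.09 SE, limma adjusted p = 0.202). Lamc1, the gamma chain of most kidney laminins, was at 1806, 1839 and 1752 and at 2166, 2066 and 1909, likewise separate (0.18 ± 0.07 SE, limma adjusted p = 0.218). Beside these 2 genes, podocyte markers (6 of 6) summed to 9130 to 10262 in Control and 10058 to 13502 in KC-Tie2 libraries, which overlap. None of these markers was called by limma, with 5 at an unadjusted p under 0.05. Their part in the result was not tested.

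Nid1, nidogen 1, was at 1558, 1879 and 1421 in Control and 2013, 1817 and 1806 in KC-Tie2 kidneys. Control replicate 2 reached into the KC-Tie2 range (log2 fold change 0.22 ± 0.10 SE, limma adjusted p = 0.308). Lama5, the alpha chain that dominates adult kidney basement membranes, ranged from 4190 to 5227 in Control and from 4544 to 5108 in KC-Tie2 kidneys. Lamb1 ranged from 4913 to 5289 and from 5050 to 6311. Lama1, an alpha chain of developing tubules, had nearly equal means (925 ± 113 and 928 ± 66.4, SD, n = 3 each, log2 fold change 0.0089 ± 0.10 SE). Means of the other alpha chains were 944 ± 70.8 and 869 ± 88.1 for Lama2, the chain of muscle and mesangial matrix, and 291 ± 43.8 and 292 ± 55.6 for Lama4, the chain of vessels. Lama3, an epithelial chain, was at 1950 ± 304 and 1704 ± 281, and Nid2, the nidogen 2 gene, at 691 ± 93.7 and 717 ± 118. Lamb3, the beta chain that pairs with Lama3 in squamous and transitional epithelia, was at 178, 278 and 73.1 in Control and 339, 45.0 and 231 in KC-Tie2 replicates 1 to 3. Its highest library was 7.52 times its lowest, the widest spread of the 37 genes, and the fold change had an SE of 1.01. Lamb3 also shares its locus with Hsd11b1 and G0s2 on the other strand, and whether counting used strand is not stated.

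The spread of Lamb3 and Vcan followed particular libraries rather than genotype. At 12 of the 37 genes, or 32.4%, the lowest pair of libraries was Control replicate 3 with KC-Tie2 replicate 2, which held at 6.93% of all genes tested. These 12 were Postn, Tnc, Dcn, Vcan, Lama4, Lamb3, Lox, Mmp14, Timp2, Ccn2, Acta2 and Tagln, a pattern noticed after the values were seen. The same 2 libraries had the lowest sums of urothelial markers, 122 and 137 against 361 to 772 in the other 4. Every one of the 6 urothelial markers is a row of the table, and none was at 0 in any library (Upk2, the lowest, was at 2.71 and 3.33 in those 2 libraries). The sum of smooth muscle and pericyte markers (9 of 9 in the table) was also lowest in them, at 4519 and 5086, against 5267 to 6257 in the others. Only Rgs5, Myh11 and Gata3 of that list had this lowest pair, and Cspg4 was highest in KC-Tie2 replicate 2 (1282). The sum of fibroblast markers (9 of 10 in the table) was lowest in the same 2 libraries, at 5029 and 5967 against 5994 to 7736, a narrow gap. Only Pdgfra of that list had this lowest pair (1204 and 1117). Col1a1, Col1a2 and Col3a1 were lowest in Control replicate 3 and KC-Tie2 replicate 3. Adipocyte markers (4 of 5) were at 67.6 and 15.0 against 88.9 to 1939. Red blood cell markers (5 of 5) were at 1474 and 973 against 1911 to 5079. The other marker lists did not have this lowest pair. The part of these cell types in the spread was not tested. KC-Tie2 replicate 1 was the highest library at 19 of the 37 genes and Control replicate 3 the lowest at 17. The matching shares over all genes tested were not counted, so these numbers do not set the 37 genes apart.

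**Figure D3:**
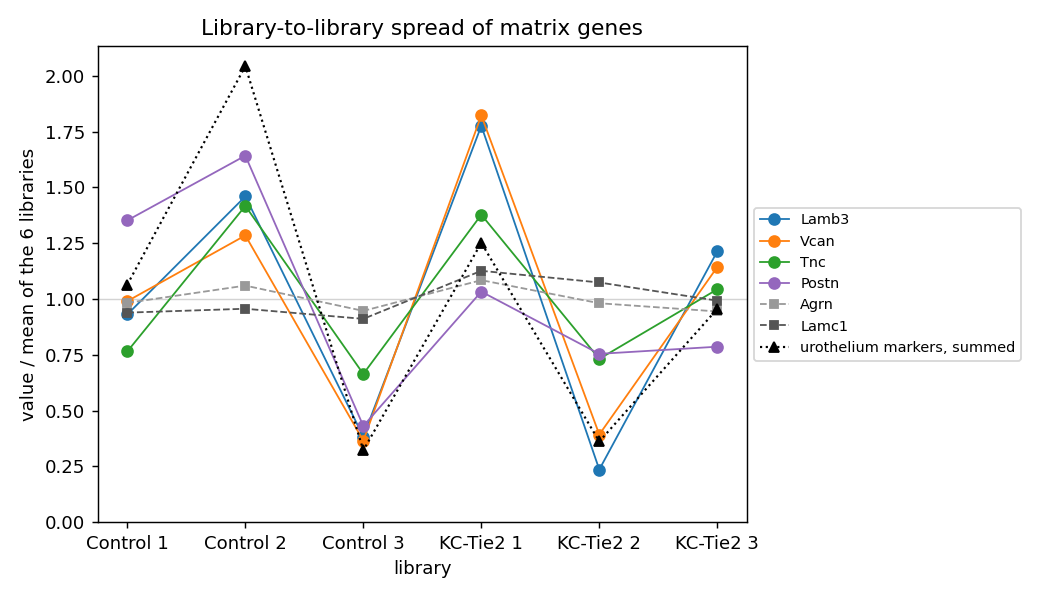
Value of each gene divided by its mean over the 6 libraries (y axis, from 0) by library (x axis), for the 4 genes Lamb3, Vcan, Tnc and Postn (circles), 2 steady genes, Agrn and Lamc1 (squares), and the sum of 6 urothelial markers (black triangles). Lamb3, Vcan and the urothelial sum fall together in Control replicate 3 and KC-Tie2 replicate 2, while Agrn and Lamc1 stay near 1.

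Lysyl oxidases crosslink collagen and elastin, which stiffens matrix. None of the 3 passed the test. Loxl2 was at 341, 493 and 366 in Control and 465, 471 and 492 in KC-Tie2 replicates 1 to 3. Control replicate 2 was the highest of all 6, and the other 2 Control libraries were below every KC-Tie2 library (log2 fold change 0.27 ± 0.13 SE, limma adjusted p = 0.348). Without Control replicate 2 it passed (limma adjusted p = 0.0491), in a fit that called 530 of all genes, against 297 with every library. In the other fits with a library left out Loxl2 did not pass (limma adjusted p 0.449 to 0.715). Loxl1 ranged from 268 to 355 in Control and from 301 to 362 in KC-Tie2 kidneys, and Lox from 64.9 to 137 and from 58.4 to 129. Loxl2 overlaps the antisense lncRNA Gm27177, so that its count is uncertain.

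Of the 4 metalloproteinase and inhibitor genes tested, 1 fell, where 0.838% of all genes tested fell. Timp3 encodes an inhibitor that, unlike the soluble TIMPs, stays bound to the matrix and blocks metalloproteinases and the ADAM proteases that shed cytokines and receptors (ENSMUSG00000020044, mm39 chromosome 10, 86136236 to 86185370). It was at 52132, 44078 and 50317 in Control and at 32939, 31791 and 40079 in KC-Tie2 replicates 1 to 3. Every KC-Tie2 library lay below every Control library, with KC-Tie2 replicate 3 nearest to the Control range. The means were 48842 ± 4225 and 34936 ± 4490 (SD, n = 3 each), a 1.40-fold fall (log2 fold change -0.49 ± 0.10 SE, limma adjusted p = 0.0409). The proximal tubule marker sum was likewise lower in every KC-Tie2 library (350132 to 414375 against 417155 to 447932), and its part in the result was not tested. Of its 8 genes, none called by limma and 3 at an unadjusted p under 0.05, Lrp2, Slc34a1 and Slc22a6 were lower without overlap, 4 overlapped, and Slc5a12 was higher without overlap. Timp3 lies inside Syn3 on the other strand, whose own means were 454 and 388.

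Timp3 was also the most abundant of these transcripts by length. Divided by exon length (union of annotated exons in GENCODE M21), its mean over the 6 libraries was 5144 normalized counts per kb, 8.2 times that of Sparc, the next at 627 per kb. Bgn (571), Ccn2 (553), Lamb1 (537) and Agrn (525) followed per kb, with ranges over libraries that overlap that of Sparc. At the lower end were Lum (13.5), Postn (9.02) and Tgfb2 (8.84 per kb). In counts, Timp3 made up 47.2% of the summed means of the 37 genes. With a library left out its log2 fold change ranged from -0.59 to -0.42. Its call was lost without Control replicate 1 or 3 and without KC-Tie2 replicate 1 or 2, with limma adjusted p-values of 0.195, 0.182, 0.153 and 0.213. Without Control replicate 2 and KC-Tie2 replicate 3 they were 0.0226 and 0.00869. With eBayes without robust and with a mean of at least 100 it missed the threshold (0.0647 and 0.0502).

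**Figure D4:**
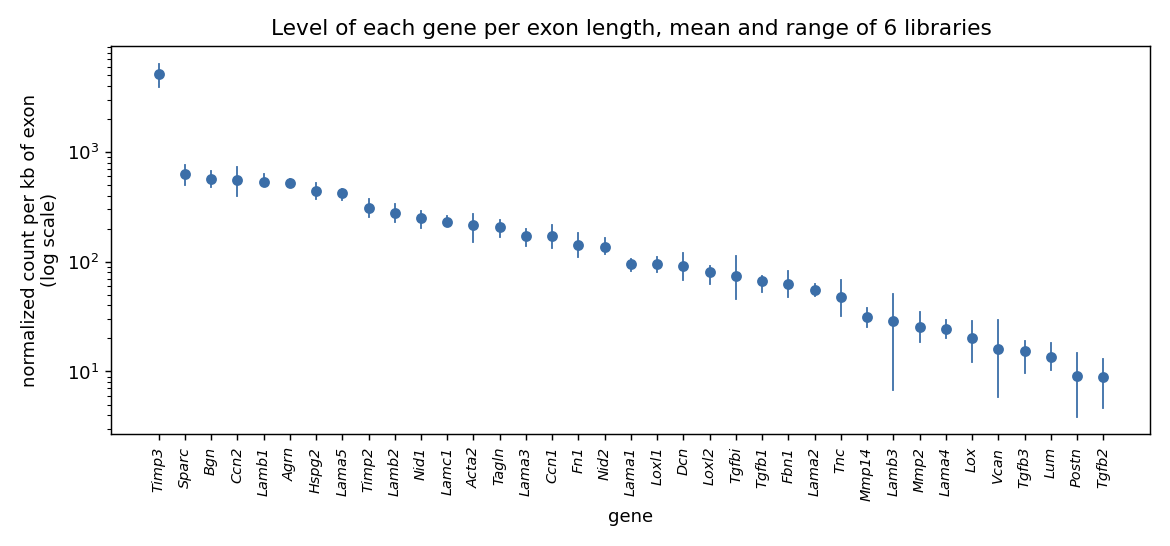
Mean normalized count per kb of exon over the 6 libraries (points, log scale) and range of the libraries (lines) for the 37 genes in descending order. Timp3 stands at 5144 per kb, above Sparc at 627, and Tgfb2 is the lowest at 8.84.

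Timp2 encodes the inhibitor that also helps to activate Mmp2, Mmp2 a gelatinase that cleaves collagen IV, and Mmp14 the membrane protease that activates it. Timp2 was at 1233, 1445 and 1057 in Control and 1458, 989 and 1095 in KC-Tie2 kidneys. Mmp2 was low, at 62.0, 118 and 75.8 and at 97.7, 89.2 and 69.9. Mmp14 was at 175, 225 and 152 and at 228, 153 and 178. All 3 overlapped between genotypes, and their log2 fold changes lay between -0.08 and 0.04 (limma adjusted p 0.875 to 0.983).

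The CCN proteins are matricellular signals, and transcription of their genes responds to mechanical tension, to TEAD factors and to TGF-beta. Ccn1 was at 373, 434 and 329 in Control and 300, 357 and 267 in KC-Tie2 replicates 1 to 3. The ranges overlapped at KC-Tie2 replicate 2 and Control replicate 3 (log2 fold change -0.30 ± 0.13 SE, limma adjusted p = 0.315). Ccn2, connective tissue growth factor, was at 2094, 1819 and 1225 and at 1480, 1126 and 1745, also overlapping (-0.23 ± 0.27 SE, limma adjusted p = 0.777).

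None of the 3 TGF-beta ligand genes passed. Tgfb1, the main profibrotic ligand, was at 270, 319 and 319 in Control and 364, 373 and 367 in KC-Tie2 replicates 1 to 3. The KC-Tie2 libraries lay close together and above all Control libraries (303 ± 28.3 and 368 ± 4.82, SD, n = 3 each, log2 fold change 0.29 ± 0.10 SE, limma adjusted p = 0.208). Tgfb2 was at 44.1, 76.0 and 27.1 and at 65.5, 50.8 and 43.6, and Tgfb3 at 32.6, 55.3 and 51.4 and at 64.4, 50.01 and 56.3. Both overlapped, with limma adjusted p-values of 0.83 and 0.618. Tgfb3 overlaps Ttll5 on the other strand.

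Acta2 and Tagln encode smooth muscle actin and transgelin, which mark smooth muscle of vessels and pelvis and, in scarring kidneys, myofibroblasts. Acta2 was at 496, 551 and 333 in Control and 603, 395 and 465 in KC-Tie2 replicates 1 to 3 (log2 fold change 0.10 ± 0.23 SE, limma adjusted p = 0.896). Tagln was at 465, 455 and 333 and at 481, 364 and 399 (-0.0035 ± 0.15 SE, limma adjusted p = 0.994). Neither gene separated the genotypes, and for both the lowest libraries were Control replicate 3 and KC-Tie2 replicate 2.

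Beyond these genes, 7 lists of other matrix and TGF-beta pathway genes held 192 names, of which 167 were tested. Of the 167, 6 rose and 4 fell, 5.99% in all against 1.69% of all genes tested. The lists were likewise chosen with earlier results of these data known, so this share is a description only. Their median log2 fold change was 0.06, and 40 did not overlap between genotypes (24%, near the 20% of all genes tested). The list with the largest share of calls, 18.2%, was that of proteoglycans and hyaluronan genes, with 1 risen and 3 fallen of 22. It was singled out after the values were seen. Of its fallen genes, Podn and Hyal1 overlap other genes on the same strand, so that their values are uncertain. Contractile genes had 0 called of 12 (limma, 1 at an unadjusted p under 0.05). Lmod1 of that list, leiomodin, had the smallest p, at 88.0 ± 10.9 and 63.1 ± 12.1 (SD, n = 3 each, limma adjusted p = 0.294).

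Grem1 rose most. It encodes gremlin, a secreted antagonist of bone morphogenetic proteins, and belongs to the TGF-beta signalling list, in which it was the only 1 of 21 called. It was at 0, 0 and 1.35 in Control and at 37.7, 97.5 and 24.5 in KC-Tie2 replicates 1 to 3. The Control libraries held 1 estimated count in all and the KC-Tie2 libraries 178, so that only the KC-Tie2 values brought its mean past the filter of 10. After scaling by library the ratio was 161, with an exact binomial 95% counting interval of 28.6 to 6410 that leaves out the spread between samples (limma adjusted p = 0.00951). Its limma fold depends on the added 1. The call was lost without KC-Tie2 replicate 1 (limma adjusted p = 0.08) and without KC-Tie2 replicate 2 (0.114), and held with 0.00857 to 0.0309 in the other 4 fits with a library left out. The TGF-beta receptor genes, named for their role and after their values were seen, did not pass. Tgfbr1 was at 1297 to 1532 in Control and 1378 to 1519 with the transgene (limma adjusted p = 0.94), and Tgfbr2 at 2202 to 2429 and 2403 to 2656 (limma adjusted p = 0.317).

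Matrix proteases and inhibitors had 2 risen of 37, where 0.855% of all genes tested rose. Adamts4, an aggrecan- and versican-cleaving protease, was at 42.0, 40.5 and 29.8 in Control and at 124, 107 and 77.1 in KC-Tie2 replicates 1 to 3 (2.68-fold, limma adjusted p = 0.0163). Pcolce, the enhancer of procollagen C-proteinase, was at 1333, 1508 and 1310 and at 2110, 2314 and 1820 (1.5-fold, limma adjusted p = 0.0138). Both genes separated the genotypes completely, in the same values from which they were called. Of 8 other crosslinking enzymes only Tgm2, tissue transglutaminase, rose, from 5258, 5604 and 5326 to 7610, 8254 and 6464 (1.37-fold, limma adjusted p = 0.0295).

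Among 22 proteoglycan and hyaluronan genes, Gpc3, a cell-surface glypican, rose from 288 ± 10.5 to 421 ± 22.8 (SD, n = 3 each, limma adjusted p = 0.0201). Esm1, endocan of endothelial cells, fell from 402 ± 42.5 to 249 ± 32.6 (limma adjusted p = 0.021), and Hyal1, a lysosomal hyaluronidase, from 421 ± 30.4 to 285 ± 24.9 (limma adjusted p = 0.0275). Podn, podocan, fell from 618 ± 44.7 to 435 ± 25.8 (limma adjusted p = 0.0203). Podn overlaps Scp2 on the same strand, an abundant gene whose own means were 6955 and 5407, and Hyal1 overlaps Naa80 (594 and 509) and Hyal3 in the same way, so that both values are uncertain. Of 22 laminin partners and matrix receptors, Itgb3, a subunit of the vitronectin receptor, was the only gene that rose (53.0 ± 14.2 to 110 ± 19.1, SD, n = 3 each, 2.08-fold, limma adjusted p = 0.0438). Of 45 other glycoproteins, Vwa1, a perlecan-binding basement membrane protein, fell from 1020 ± 88.7 to 780 ± 22.9 (limma adjusted p = 0.0391).

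**Figure D5:**
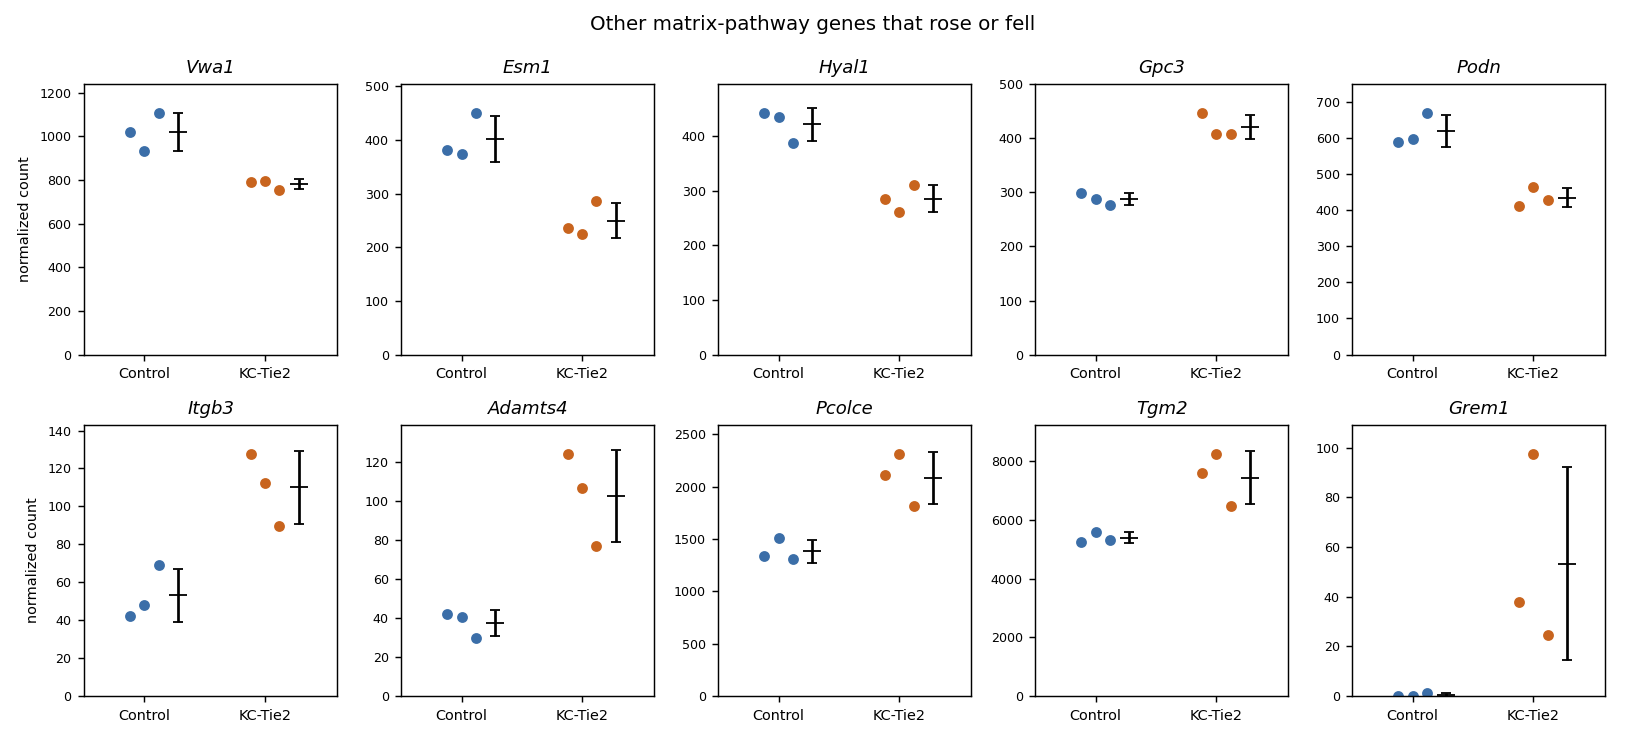
Normalized count (y axis, from 0) of the 10 called genes of the other matrix lists in Control (blue) and KC-Tie2 (orange) libraries; points are libraries, in the order of replicates 1 to 3, and black bars are mean ± SD. The libraries of the genotypes do not overlap at any of the 10, which were called on these same values. Grem1 is at 0, 0 and 1.35 in the Control libraries.

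The number of called genes in these lists was 1, 14 and 1 without Control replicates 1, 2 and 3 and 0, 0 and 13 without KC-Tie2 replicates 1, 2 and 3. Grem1 was the gene called without Control replicate 1 and without Control replicate 3. Itgb3 and Vwa1 also missed the threshold with eBayes without robust (limma adjusted p = 0.061 and 0.0554) and with voom (0.0578 and 0.0599), and Vwa1 with total-sum scaling (0.053). For the 37 genes described first, the number called was 0, 4 and 0 without Control replicates 1, 2 and 3 and 0, 0 and 4 without KC-Tie2 replicates 1, 2 and 3. Over all genes those fits called 51, 530 and 54, and 69, 48 and 682, so that the counts of these genes moved with those of the whole table. No gene of the 37 was called when Control replicate 3 and KC-Tie2 replicate 2, the libraries low in urothelial markers, were left out together. The same held for Control replicate 1 and KC-Tie2 replicate 1, the libraries high in adipocyte markers. These fits had 2 libraries per genotype and called 36 and 20 of all genes, so that the lost calls say nothing about urothelial or adipocyte content. The log2 fold changes without the first pair were 0.50 for Fn1, 0.69 for Tgfbi and -0.40 for Timp3, and without the second pair 0.41, 0.68 and -0.40.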

How the data were processed

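RNA was measured in 6 mouse kidney libraries, 3 per genotype, grouped by the labels' titles. Partek 12.5.0, STAR, DESeq2 and the mm39 build are named per the submitters' processing notes. What each did, the annotation release and strand handling are not given in these sources. The authors deposited normalized counts, a signal that is never negative: in each library a single step explained 68.2% to 71.0% of values below 60 as whole multiples (tolerance 0.01), so they were read as estimated counts divided by a factor. The smallest row maximum in the table was 24.8. Per the file headers, the authors' second table holds a p-value and step-up FDR, a ratio and a signed fold change per gene; its FDR and ratio were copied and not retested.

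Genes with a mean of at least 10 were tested with limma 3.58.1 in R 4.3.3 on log2(value + 1) (lmFit, then eBayes using trend and robust; 4 residual degrees of freedom). Tests were two-sided, adjusted by Benjamini-Hochberg over 17539 genes. Genes and lists were chosen with earlier results of these data known. Values by library are given for called genes, for genes whose groups do not overlap and for others whose spread is described, the latter chosen after their values were seen. From the other lists the called genes are named, or the gene with the smallest p, and the 2 TGF-beta receptors. Other settings tried were voom, library weights, non-robust eBayes, a block for replicate number, quantile and total-sum scaling, pseudocounts of 0.5 and 5, dropping the filter or raising it to 100, and leaving out each library; leaving out 2 pairs of libraries was chosen after seeing the data. Protein sequences were not used here, and 1 gene that overlaps a named gene is not reported here. Python 3.11.15, pandas 2.3.3 and matplotlib 3.10.9 made the descriptions and figures.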

Additional observations from a re-analysis of the deposited data

How the results depend on the processing

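Called genes over the whole table numbered 297, and 581 with the replicate block, 549 with library weights and 20 to 682 with libraries left out. Called genes among the 37 numbered 3, and 0 to 4 with libraries left out. In the other matrix lists there were 10, and 0 to 14 with libraries left out. Genes of the 37 that did not overlap numbered 7, and 7 to 14 (18.9% to 37.8%) with libraries left out, where 27% to 37.9% of all genes did not overlap. These were 14 without Control replicate 2 (37.8%, against 35.8% of all genes), 11 without Control replicate 3 (29.7%, against 28.3%) and 12 without Control replicate 3 and KC-Tie2 replicate 2 (32.4%, against 37%). Without Control replicate 1 the share was 18.9%, against 27.8% of all genes. Without KC-Tie2 replicates 1, 2 and 3 it was 21.6%, 24.3% and 21.6%, against 27.7%, 27% and 36.1%. Without Control replicate 1 and KC-Tie2 replicate 1 it was 21.6%, against 37.9%. The remaining alternatives kept these counts within 1.5 times. Fn1 and Tgfbi kept a positive and Timp3 a negative log2 fold change in every alternative. Replicate numbers did not pair the libraries: deviations of same-numbered libraries correlated at 0.18, -0.096 and 0.017 across genes, and not every library correlated best with its own number. With the replicate block, 4 of the 37 genes were called, Sparc being added (limma adjusted p = 0.0429).

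Many of the 34 genes that were not called had no stable direction. The log2 fold changes of the following crossed 0 under some fits with libraries left out, over these ranges: Lamb3 -0.58 to 0.86, Lama4 -0.15 to 0.10, Tagln -0.16 to 0.085, Lama1 -0.090 to 0.087, Mmp14 -0.17 to 0.17, Postn -0.80 to 0.15, Dcn -0.31 to 0.076, Bgn -0.12 to 0.20, Agrn -0.058 to 0.054, Nid2 -0.089 to 0.15, Mmp2 -0.26 to 0.30, and likewise Lum -0.32 to 0.12, Lox -0.47 to 0.10, Timp2 -0.25 to 0.033, Tnc -0.15 to 0.51, Vcan -0.27 to 0.89, Hspg2 -0.049 to 0.21, Lama5 -0.035 to 0.14, Tgfb2 -0.14 to 0.59, Acta2 -0.12 to 0.24, Loxl1 -0.0081 to 0.27, Tgfb3 -0.0078 to 0.49. Under other alternatives the sign differed from the reported value for Lamb3 (0.0030 at pseudocount 5, 0.026 with total-sum scaling, 0.027 with voom), Lama4 (0.032 with total-sum scaling, 0.029 with voom), Tagln (0.031 and 0.030), Lama1 (-0.00060 with quantile normalization) and Mmp14 (-0.0039 with quantile normalization, -0.0096 with library weights). The cause was not tested. Depth limits low genes, since 1 estimated count equals 0.826 to 1.35 normalized counts.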
